A study of Mus musculus with 8 samples.

Results

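The sites described here are adenines called as N6-methyladenine (6mA) whose next base is a guanine and whose second next base is adenine, cytosine or thymine. They are called single-guanine sites below. Each deposited call comes with 41 bases of its own strand, with the called adenine at base 21, so the sites were chosen on bases 22 and 23 alone and no measured value entered the choice. They number 2723 of 17418 calls, at 2575 distinct bases of the genome. The list of wild-type cells and the L part (WT L) holds 556 of 3862 calls, KO L holds 500 of 3044, WT S holds 1048 of 7142 and KO S holds 619 of 3370. Calls followed by 2 guanines (1253) and calls not followed by guanine (13442) served for comparison.

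DNA was recovered by native chromatin immunoprecipitation, without crosslinking, with a customized antibody to the histone variant H2A.X and was sequenced on single molecules (SMRT sequencing). The wild-type (WT) cells, labelled TT2, and the Alkbh1 knockout (KO) cells were mouse embryonic stem cells of a C57BL6 x CBA background at passage 5 to 10, grown without feeder cells. For each genotype the DNA was sequenced as 2 portions, long (L) and short (S), with 2 replicates of each. The 8 samples share 4 lists of calls, 1 for each genotype and part, so no difference below has a replicate check, and how the knockout was made and in how many clones is not stated in the labels. The labels say that sequencing was repeated, so the replicates may be technical. Intervals are at 95%, cover counting error only and treat sites as independent.

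N6-methyladenine is the main adenine mark of bacterial DNA and is rare or disputed in mammalian DNA. In SMRT sequencing a polymerase copies 1 molecule in real time, and the time between incorporations, the inter-pulse duration (IPD), lengthens at some modified bases. The IPD ratio sets that time against the one predicted for unmodified DNA of the same sequence, so a call depends on a sequence model as well as on the DNA. ALKBH1 is a dioxygenase of the AlkB family for which DNA and RNA demethylase activities have been described.

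Median coverage ran from 11 to 14 over the 4 lists, and every call had a score of 20 or more and a coverage of 6 or more. The lists hold no depth for adenines without a call. The expectation for a sequence feature was therefore taken from those adenines, other than the called one, that the 41-base contexts hold, named the background below.

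Contexts are given here so that a reader can see what single-guanine sites look like, 5′ to 3′ on the called strand, in mm10 coordinates. Capitals mark the called adenine, the guanine after it and the next base. The first 4 are among the 14 single-guanine bases that were called in all 4 lists, and each lies in a satellite-like repeat.
chr9:3000693-3000733, minus strand: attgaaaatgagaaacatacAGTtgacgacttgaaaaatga
chrUn_JH584304:78173-78213, minus strand: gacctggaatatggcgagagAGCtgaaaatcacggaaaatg
chr2:98666801-98666841, minus strand: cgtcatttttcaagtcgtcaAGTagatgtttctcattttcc
chr2:98666989-98667029, plus strand: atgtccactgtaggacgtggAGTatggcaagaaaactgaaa
The context at chr2:98666801-98666841 is also that of a call at chr2:98662280-98662320 on the plus strand, so the same 41 bases were called at more than 1 place.

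The next 4 are, for each base before the called adenine (A, C, G and T in this order), the single-guanine call with the highest identification score outside windows dense in calls, at coverage of 25 or more. The identification score is the caller's own score for the kind of modification.
chr14:53180525-53180565, plus strand: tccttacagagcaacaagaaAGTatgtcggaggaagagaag
chr14:60684119-60684159, plus strand: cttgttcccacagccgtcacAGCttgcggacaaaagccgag
chr9:35305483-35305523, plus strand: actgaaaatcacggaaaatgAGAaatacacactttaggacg
chr6:16332936-16332976, minus strand: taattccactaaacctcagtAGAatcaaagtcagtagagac
The first lies in Tcra, the second in Spata13 and Gm41165, the third in the non-coding gene Gm33838 and the last in no gene of the table. Their identification scores were 50, 122, 56 and 56 in WT S, at coverage of 37, 33, 3175 and 25. Their IPD ratios were 3.31, 7.22, 1.23 and 7.6, so the call in Gm33838, which is satellite-like, had by far the most coverage and the smallest slowing.

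The last 4 had the highest IPD ratio of a single-guanine call in its list (WT L first, then KO L, followed by WT S and lastly KO S), outside dense windows and at coverage of 25 or more.
chr1:42321468-42321508, minus strand: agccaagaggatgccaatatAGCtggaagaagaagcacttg
chr7:37801593-37801633, plus strand: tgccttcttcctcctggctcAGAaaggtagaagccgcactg
chr2:39000209-39000249, minus strand: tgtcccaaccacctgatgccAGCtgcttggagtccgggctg
chr13:29433052-29433092, plus strand: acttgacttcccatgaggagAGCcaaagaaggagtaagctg
Their IPD ratios were 14.49, 12.07, 15.29 and 7.14. The third lies in Wdr38 and the fourth in Cdkal1. None of the 4 was called in a second list.

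Single-guanine sites were fewer than the background in both WT lists and lay near it in both KO lists. They made up 14.4% of calls in WT L (interval 13.3 to 15.5) against 17.6% of background adenines, a ratio of 0.817 (0.755 to 0.885). In WT S the share was 14.7% (13.9 to 15.5) against 17.1%, a ratio of 0.860 (0.812 to 0.912). In KO L it was 16.4% (15.1 to 17.8) against 17.2%, a ratio of 0.952 with an interval from 0.876 to 1.03. In KO S it was 18.4% (17.1 to 19.7) against 17.9%, a ratio of 1.03 with an interval from 0.955 to 1.11. Satellite-like contexts, a repeat class described further on, bear on this. Without them the ratios were 0.746 in WT L, 0.827 in KO L (0.754 to 0.908), 0.785 in WT S and 0.937 in KO S (0.865 to 1.01), so that the KO L share was then below background too. Among calls with an identification score of 20 or more, satellite-like contexts included, the ratios were 1.13 (0.925 to 1.39), 1.55 (1.29 to 1.87), 1.30 (1.15 to 1.46) and 1.49 (1.26 to 1.76). Without such contexts, calls that scored from 20 to under 30 had WT shares of 18.6% against 18.7% in L and 16.1% against 17.7% in S. The KO shares there were 21.9% against 18.4% and 22.8% against 17.7%. At scores of 30 or more each list lay above its background as a value. Over all calls, those followed by 2 guanines stood above their background in all 4 lists, at ratios of 1.21, 1.22, 1.16 and 1.55 listed with L ahead of S and, within each, WT ahead of KO, an order kept below.

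**Figure D1:**
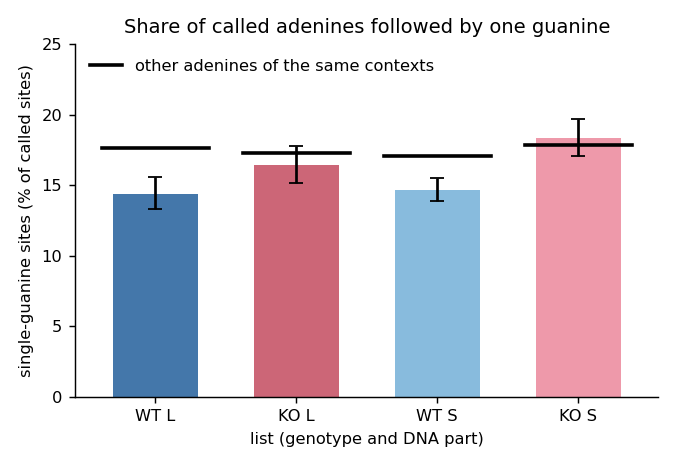
Share of called adenines followed by a single guanine, in percent of the calls of each list (bars, with exact Clopper-Pearson intervals at 95%), and the background share (black lines). Both WT bars lie below their line, at 14.4% and 14.7%, and the KO intervals hold theirs.

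The KO share was above the WT share in both parts. The difference was 2.03 percentage points in L (0.318 to 3.76) and 3.69 points in S (2.17 to 5.26). The second held up better against the choice of sites. Without satellite-like contexts the L difference was 1.33 points, with an interval from -0.428 to 3.11, and the S difference was 3.79 points (2.21 to 5.41). With coverage matched by weighting, the differences were 1.89 points in L (0.173 to 3.61) and 3.31 points in S (1.75 to 4.87). With each list set against its own background they were 2.40 points (0.598 to 4.19) and 2.90 points (1.29 to 4.51). The S difference less the L difference was 1.67 points, and its interval from -0.640 to 3.98 includes 0. Between parts of 1 genotype, S lay above L by 0.277 points in WT (-1.12 to 1.64) and by 1.94 points in KO (0.0819 to 3.79). Calls followed by 2 guanines differed between KO and WT by 0.293 points in L (-0.910 to 1.52) and by 2.77 points in S (1.67 to 3.93), and calls not followed by guanine made up the rest. Over chromosomes 1 to 19 and X, the single-guanine share was higher in KO on 15 of 20 in L and on 16 of 20 in S.

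Ratios of single-guanine sites to background differed by the base before the called adenine. With adenine before, 129, 144, 262 and 141 calls gave ratios to background of 0.594 (0.4996 to 0.707), 0.873 (0.740 to 1.03), 0.667 (0.590 to 0.753) and 0.787 (0.666 to 0.930). With thymine before, 91, 72, 165 and 77 calls gave ratios of 0.750, 0.793, 0.774 and 0.751, and the KO L interval alone, from 0.627 to 1.00, reached 1. Both kinds were thus below background in each list as a point value over all calls. Under stricter settings for calls the adenine kind turned above it, by coverage of 25 or more to 2.17, 3.22, 1.06 and 2.03. Over all calls, low ratios with adenine before were not particular to a single guanine. Calls in AAAA, with the called adenine as the second base, stood at 0.691, 0.611, 0.621 and 0.504. Those in AACA stood at 0.302, 0.366, 0.304 and 0.266, while AATA went the other way, at 1.47, 1.47, 1.55 and 1.92. With cytosine before, the ratios were 0.968, 1.00, 1.06 and 1.24, and only the KO S interval (1.08 to 1.42) lay above 1. With guanine before, the ratios were 1.00, 1.12, 0.961 and 1.27, and again only the KO S interval (1.09 to 1.47) lay above 1. Without satellite-like contexts that KO S ratio was 1.07 (0.908 to 1.26). At coverage of 25 or more, satellite-like contexts included, the guanine kind was above 1 in the 4 lists, at 1.69, 2.11, 1.67 and 2.47. Most single-guanine calls at that coverage are satellite-like. Without such contexts single-guanine sites of all kinds there made up 14.2%, 13.6%, 11.2% and 16.4% of calls. These shares lay below backgrounds of 17.3%, 18.4%, 17.7% and 19.9%.

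**Figure D2:**
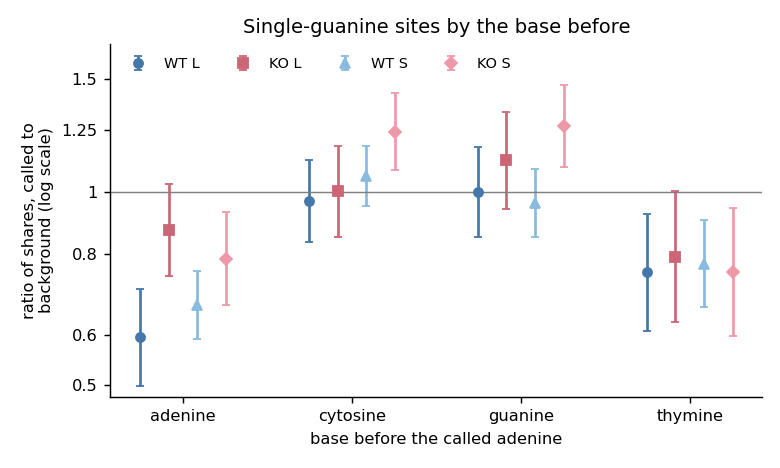
Ratio of the share of single-guanine sites among calls to that among background adenines, on a log axis, split by the base before the called adenine, with intervals at 95% from counting error. Sites with adenine or thymine before lie below 1 in the 4 lists, and sites with cytosine or guanine before lie above 1 in KO S.

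Split by the base before, the KO minus WT differences were as follows. In L, sites with adenine before accounted for 1.39 points (0.460 to 2.36) of the difference, and sites with cytosine, guanine and thymine before for 0.208, 0.422 and 0.00902 points, each with an interval that includes 0. Part of the adenine value in L was satellite-like sequence: such contexts made up 25.6% of these WT sites and 31.9% of the KO ones, and without them the difference was 0.8998 points (0.0218 to 1.82). In S, sites with guanine before gave 1.83 points (0.964 to 2.75) and sites with cytosine before 1.38 points (0.442 to 2.37). Sites with adenine and thymine before gave 0.516 points (-0.262 to 1.35) and -0.0254 points (-0.613 to 0.623) in S. The S difference less the L difference was 1.40 points (0.101 to 2.73) for guanine before, and the intervals for adenine (-0.875), cytosine (1.17) and thymine (-0.0344) included 0. This value was computed for 22 overlapping classes, with no adjustment for their number, and 4 intervals excluded 0. The other 3 classes were the word GAGA, which lies within guanine before, at 1.15 points (0.196 to 2.12), calls followed by 2 guanines at 2.48 points (0.829 to 4.15), and calls not followed by guanine at -4.15 points (-6.82 to -1.48).

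The 64 words made of the base before, the called adenine and the 2 bases after hold 12 single-guanine words. A word was taken as lower when its share among calls was at most 0.8 of its share in the background, and as higher at the inverse of that fold. In WT L none of the 12 was higher, where 25% of all words were, and 4 were lower, where 28.1% were: the 3 words with adenine before, and TAGA. In KO L 2 of 12, GAGC as well as TAGT, were higher, against 34.4% of all words. The KO L words that were lower numbered 3, against 26.6%, and were AAGA and, with thymine before, TAGA as well as TAGC. In WT S none was higher, against 28.1%, and 6 were lower, against 35.9%. These 6 were the 3 with adenine before, then GAGC, and with thymine before TAGA as well as TAGC. In KO S 4 were higher, against 32.8%, namely CAGA as well as CAGT with cytosine before, and GAGA as well as GAGT with guanine before. Lower in KO S were 3, against 34.4%: AAGA, and with thymine before TAGA as well as TAGT. At 1.5-fold none of the 12 words was higher in KO S, against 13 of 64, and 1 was lower in WT S, against 13 of 64. AAGA and TAGA were lower in every list. AAGA stood at 0.564, 0.674, 0.578 and 0.630 of background, from 62, 54, 111 and 57 calls, and TAGA at 0.569, 0.573, 0.764 and 0.757, from 33, 26, 79 and 36 calls. In none of the lists was a single-guanine word among the most enriched: the best placed were GAGA (place 24 of 64 in WT L), GAGC (9 in KO L) and GAGT (20 in WT S, 14 in KO S).

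Between genotypes in S, 6 of the 12 words were higher in KO by the same fold, against 31.2% of the 64 words, and none was lower, against 21.9%. The 6 were CAGA (1.33-fold), CAGT (1.41), GAGA (1.57), GAGC (1.34), GAGT (1.45) and TAGC (1.26). GAGA was called 134 times in WT S against 99 times in KO S, and its ratio to background went from 0.918 to 1.33. The median KO to WT ratio was 1.24 for the 12 words and 0.952 for the 64, and 10 of 12 lay above 1, against 29 of 64. In L, 3 words were higher in KO, against 17.2%, and 1 (TAGC) lower, against 14.1%. The 3 were AAGC (1.69-fold, from 36 and 48 calls), AAGT (1.72-fold, from 31 and 42 calls) and GAGC (1.499-fold, from 33 and 39 calls). AAGT had the highest KO to WT ratio of the 64 words in L, and in S its ratio was 1.14. The median in L was 1.10 for the 12 words and 1.03 for the 64, with 8 of 12 above 1, against 37 of 64. GAGC alone was higher in KO past the fold in both parts, while TAGC went opposite ways, at 0.752 in L and 1.26 in S. At 1.5-fold 1 of the 12 words was higher in KO S than in WT S, against 8 of 64, and 2 were higher in KO L than in WT L, against 4 of 64.

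**Figure D3:**
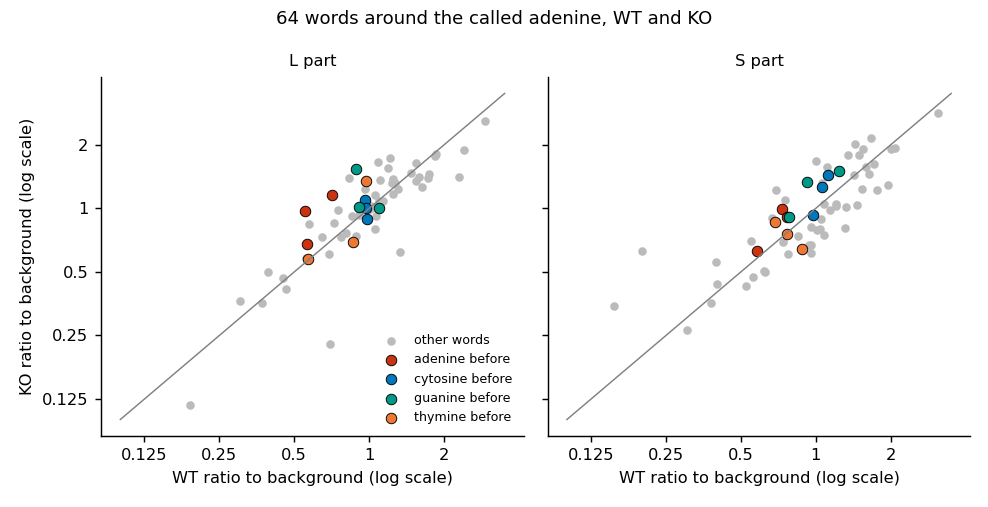
Ratio to background of each of the 64 four-base words in WT (horizontal, log axis) and KO (vertical, log axis), with L on the left and S on the right. Single-guanine words are coloured by the base before the called adenine. In S the words CAGC, TAGA and TAGT lie below the diagonal, and in L CAGT, GAGA and TAGC do. The other single-guanine words lie above it.

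The slowing at single-guanine sites lay between that at sites followed by 2 guanines and that at sites not followed by guanine. The median IPD ratio of single-guanine sites in the L portion was 2.72 for WT (2.60 to 2.83) and 2.64 for KO (2.58 to 2.73). In the S portion it was 2.73 for WT (2.64 to 2.82) and 2.76 for KO (2.67 to 2.85). Sites not followed by guanine had medians of 2.5, 2.52, 2.5 and 2.58, and sites followed by 2 guanines had medians of 3.195, 3.08, 3.08 and 3.04. The 3 intervals did not overlap in any of the 4 lists. Over all calls, the slowing where a cytosine followed the called adenine was close to that of single-guanine sites, with medians of 2.72, 2.605, 2.71 and 2.75. The order of the classes depended on the score: at a score of 30 or more the single-guanine medians were 2.58, 2.635, 2.82 and 2.68, each below the 2.70, 2.66, 2.83 and 2.785 of sites not followed by guanine, with overlapping intervals. Sites followed by 2 guanines then had medians from 3.52 to 3.83. Satellite-like contexts, which have deep coverage and small ratios, pulled the single-guanine medians down. Without them the medians were 2.90 (2.78 to 3.10), 2.79 (2.69 to 2.94), 2.91 (2.81 to 3.00) and 2.87 (2.78 to 3.01), above the 2.57, 2.60, 2.56 and 2.66 of sites not followed by guanine, and their intervals then overlapped those of sites followed by 2 guanines. KO and WT medians of single-guanine sites overlapped in their intervals in each part.

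**Figure D4:**
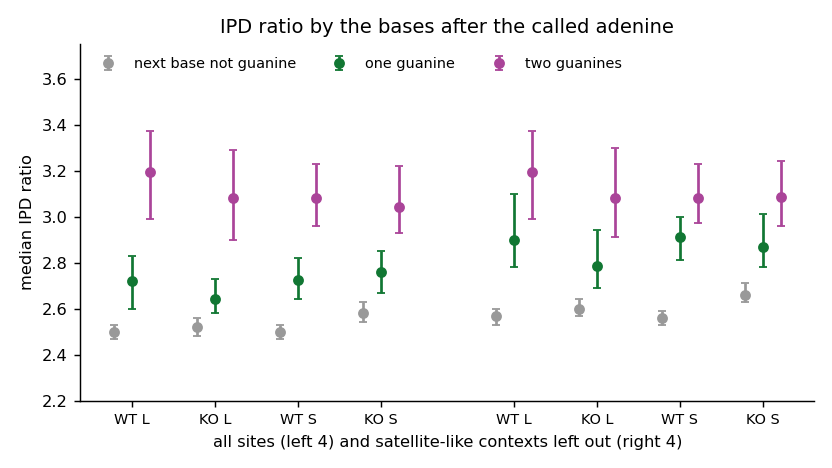
Median IPD ratio with its 95% interval, for sites whose next base is not guanine (grey), single-guanine sites (green) and sites followed by 2 guanines (purple), in all sites and with satellite-like contexts left out. Green points lie above grey ones in each of the 8 pairs. The vertical axis does not start at 0.

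Among single-guanine sites, those with thymine before had the largest slowing in S. Without satellite-like contexts their median IPD ratio was 3.06 for WT (2.82 to 3.24) and 3.43 for KO (3.13 to 3.82), while the other 3 kinds lay between 2.81 and 2.89 for WT and between 2.78 and 2.86 for KO. In KO S the interval overlapped that of sites with adenine before (2.59 to 3.17) by little and lay above those of sites with cytosine (2.62 to 2.94) and guanine (2.72 to 3.12) before. In L, sites with thymine before had medians of 2.82 and 2.76 and did not stand apart. Sites with thymine before were thus the rarest kind, as they were in the background, and, in S, the one with the largest ratio. Over all calls in S they also had the lowest median coverage. It was 12 in WT and 9 in KO, against 13 to 16 and 12 to 15 for the other kinds. Median ratios of single-guanine sites were smaller at higher coverage, and the part of coverage in this order was not tested. The modified fraction, the caller's estimate of the share of molecules that are modified, is given at coverage of 11 or more only. Outside satellite-like contexts its median at single-guanine sites was 73.1%, 70.9%, 72.8% and 73.0%, from 204, 169, 587 and 269 sites, against 73.4%, 69.0%, 72.4% and 80.4% at sites not followed by guanine. It was lowest where cytosine followed the guanine, at 61.5%, 58.7%, 58.6% and 57.4%.

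Single-guanine sites took a larger share of the calls with a high identification score. Outside satellite-like contexts, 12.5%, 13.4%, 17.7% and 16.5% of single-guanine sites scored 20 or more, against 7.99%, 7.44%, 12.02% and 10.1% of sites not followed by guanine. Sites followed by 2 guanines stood at 12.98%, 13.49%, 20.04% and 13.25%, so that a larger share was not particular to a single guanine. Read the other way, calls that scored under 5 were single-guanine in 12.9%, 12.7%, 12.3% and 14.7% of cases. Calls that scored 30 or more were single-guanine in 20.5% (12.6 to 30.4, 88 calls), 25.4% (14.98 to 38.4, 59 calls), 23.5% (18.6 to 29.0, 272 calls) and 31.7% (22.8 to 41.7, 101 calls). Background shares in these classes stayed between 15.1% and 19.1%. In both S lists the interval of the highest class lay above that of the lowest class and above the background of its own class. Of 5 classes of the IPD ratio, ratios of 4 or more had the highest single-guanine share in each list, at 24.7%, 23.3%, 19.8% and 22.1%, against 10.4%, 13.5%, 10.0% and 16.6% at ratios under 2. In both KO lists the share did not rise at each step, and in KO S the intervals of these end classes overlapped (12.7 to 21.01 and 18.6 to 25.8). Background shares at ratios of 4 or more were 20.3%, 19.9%, 18.7% and 19.6%. Only the WT L interval (21.2 to 28.5) lay above its background there, and the intervals of the other lists held theirs. Over coverage, still outside satellite-like contexts, the share was not higher at the top than at the bottom. Calls at 25 or more were single-guanine in 14.2%, 13.6%, 11.2% and 16.4% of cases and calls at 6 to 7 in 14.2%, 14.8%, 14.2% and 18.2%. With satellite-like contexts included, the shares at 25 or more were 19.3%, 23.95%, 16.2% and 20.99%. Those at 6 to 7 were then 14.2%, 14.9%, 14.3% and 18.1%.

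**Figure D5:**
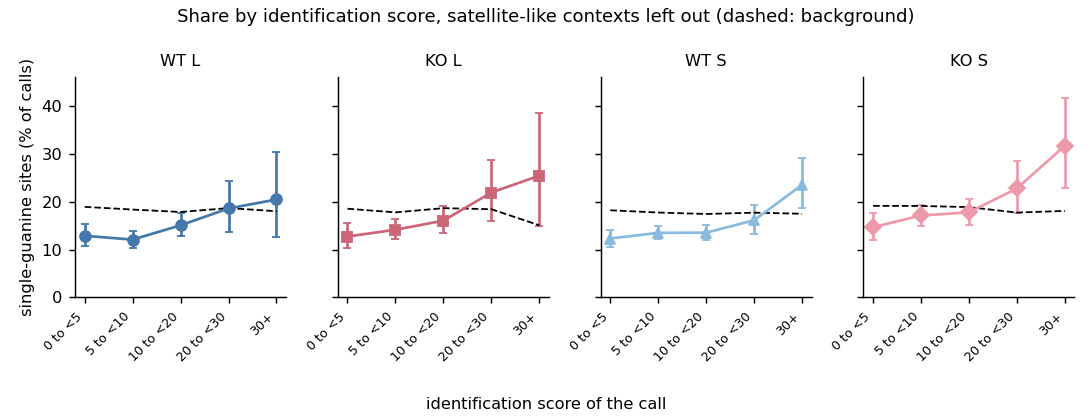
Share of single-guanine sites among calls outside satellite-like contexts, in percent, by class of the identification score, with exact intervals at 95%; dashed lines give the background share in the same contexts. In each list the share is highest in the class of 30 or more, from 20.5% in WT L to 31.7% in KO S.

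Satellite-like contexts shared at least 3 words of 12 bases with the contexts called in the first 100 kb window of calls on chromosome 9, a repeat array. They held 13.8%, 19.2%, 12.6% and 13.9% of single-guanine sites, against 9.43%, 11.1%, 7.53% and 10.8% of sites not followed by guanine and 0.758%, 0.922%, 0.434% and 2.89% of sites followed by 2 guanines. Their slowing was small: the median IPD ratio was 2.01, 2.18, 1.975 and 1.995, and the median modified fraction 27.2%, 29.0%, 23.4% and 25.4%. Together these 391 calls fell into 62 distinct stretches of 13 bases around the called adenine. The 5 commonest took 164 calls, or 41.9%, so that the repeat was called again and again at the same adenines, and its calls are not separate instances of the sequence. The 3 commonest stretches show which adenines these were.
repeat stretch with 49 calls at 34 bases: tttagaAGAgtcc
repeat stretch with 38 calls at 29 bases: aaaatgAGAaaca
repeat stretch with 30 calls at 23 bases: cgagaaAGCtgaa
Their median IPD ratios were 2.37, 1.53 and 1.97. The second fell on 4 chromosomes or sequences, and each of the other two on 1. In the 4 lists the first had 10, 13, 16 and 10 calls, the second 3, 1, 14 and 20, and the last 6, 8, 10 and 6. The second, with guanine before, was thus mostly an S call.

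Calls at the same base and strand in more than 1 list came nearly all from such repeats. Of the 2575 single-guanine bases, 95 were called in 2 or more lists, against 251 of the 14270 bases of the other calls. Of these 95 single-guanine bases, 94 lay in windows of 100 kb that held at least 10 calls in a list. Of the 500 single-guanine bases of KO L, 41 (8.2%) were also in WT L, where they were 7.37% of its single-guanine bases. Of the 619 of KO S, 39 (6.30%) were also in WT S (3.72% of its own). Outside dense windows none of 397 bases of KO L was in WT L, which allows a share of up to 0.925% (exact interval), and 1 of 534 of KO S was in WT S. Of the other calls, 100 of 2544 bases of KO L (3.93%) were in WT L and 122 of 2751 of KO S (4.43%) in WT S, and outside dense windows 7 of 2290 and 8 of 2480. The 1 single-guanine base of KO S is the satellite-like call in Gm33838 printed above, with IPD ratios of 1.23 in WT S and 1.24 in KO S. Among the 14 bases called in the 4 lists, the base on chromosome 9 printed above had IPD ratios of 2.63, 2.53, 2.09 and 2.80 at coverage of 198, 137, 382 and 168. The base of the second context on chromosome 2 had 2.09, 1.99, 2.15 and 2.0 at coverage of 4942, 4427, 6222 and 4499. The values of the base on chromosome 2 lay closer together than those of the base on chromosome 9. At this base of chromosome 2 both KO values were below both WT values, and at the base on chromosome 9 the genotypes overlapped. The base of the first context on chromosome 2 had 1.96 and 1.84 in WT and 1.89 and 1.95 in KO, so the genotypes overlapped there too. At the base on chrUn_JH584304 both KO values (1.72 and 1.48) were below both WT values (1.87 and 1.74). The genotypes overlapped at the plus-strand call at chr2:98662280-98662320 (2.04 and 1.89 in WT, 1.93 and 1.78 in KO). They also overlapped at a base of chromosome 14 (1.52 and 1.57 in WT, 1.68 and 1.51 in KO). With 1 value for each list, such an order cannot be told from spread between lists.

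Outside satellites the contexts of single-guanine sites were rarely repeats of each other. Of 2285 distinct stretches of 21 bases, 2270 were called at a single base. The commonest, called at 11 bases of 9 chromosomes, was an alternating run of guanine and adenine.
stretch with 11 calls: agagagagagAGAgagagaga
Runs of at least 4 GA or AG pairs were present in 1.98%, 1.6%, 1.72% and 2.58% of single-guanine contexts and in 0.242%, 0.275%, 0.443% and 0.218% of the contexts of the other calls, on the called strand. Within such a run nearly every adenine is followed by a single guanine, so that the rule itself favours them. The 53 calls, 41 of them GAGA, lay on 18 chromosomes, none was satellite-like, and their median IPD ratio was 2.89 at a median coverage of 10. A run of 5 adenines was present in 10.1%, 9.4%, 9.92% and 7.43% of single-guanine contexts and in 18.4%, 17.7%, 17.5% and 15.05% of the others. Here the rule itself works against such runs: its guanine ends any run at the called adenine, and calls followed by adenine are all among the others. GC content was taken over the contexts without the called adenine, the base before it and the 2 bases after it. The guanine of the rule was thus not counted. It was 43.8% ± 10.2 (SD over 556 contexts) in WT L and 43.5% to 44.3% over the lists. For sites not followed by guanine the GC content was 40.1% to 41.6%. Outside satellites guanine was also commoner at 3 bases before the called adenine, at 28.0%, 27.2%, 28.4% and 28.7% against 20.5%, 20.01%, 22.2% and 23.1% of the other calls, and at 7 bases after it, at 31.1%, 31.9%, 30.8% and 31.3% against 22.97%, 24.4%, 24.4% and 24.8%. Neither position was used to choose the sites, but both were picked from all positions of the 41-base contexts. Single-guanine contexts were also richer in GC as a whole, as given above.

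The word AGAA at the called adenine, which lies inside the single-guanine class, made up 2.28%, 2.56%, 2.06% and 2.82% of all calls, against 3.49%, 3.55%, 3.25% and 3.18% of background adenines. The word AGCT reads the same on both strands, so that both strands could be called at 1 site. It was called at 62, 64, 90 and 51 adenines, and at none of them was the adenine of the other strand called in the same list.

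Single-guanine sites lay in genes about as often as the other calls. A gene of the RefSeq table (assembly GRCm38.p6, gene start to gene end) held 51.6%, 48.7%, 49.0% and 45.2% of them, counted on chromosomes 1 to 19, X and Y. Sites not followed by guanine stood at 49.4%, 46.8%, 50.3% and 48.3%, within the intervals of the former. Where the strand of the gene was known, the called adenine was on the sense strand in 42.7% (35.5 to 50.2), 43.7% (35.7 to 52.0), 45.8% (40.4 to 51.3) and 52.9% (45.5 to 60.1) of cases, and each interval includes an even split. The plus strand held 46.4% (42.2 to 50.6), 43.8% (39.4 to 48.3), 43.6% (40.6 to 46.7) and 45.9% (41.9 to 49.9) of single-guanine sites. Only the WT L interval includes an even split. Without satellite-like contexts the plus strand held 50.3%, 49.3%, 46.1% and 49.2%. Of these, only the WT S interval (42.8 to 49.4) excludes an even split.

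Most genes with such a site had a single one. Of 1132 genes, 1011 held 1, 107 held 2 and 14 held 3 or more, and 5 held sites in 3 or more lists. These 5 were long genes: Ptprd, a receptor tyrosine phosphatase gene of synapses (chr4:75941237-78211742), held 1, 1, 2 and 1 sites with IPD ratios from 2.28 to 10.34. Camta1, which encodes a calmodulin-binding transcription factor, held 0, 1, 2 and 1. Trhde, for an enzyme that degrades thyrotropin-releasing hormone, held 0, 1, 1 and 1. Grin2b, for an NMDA receptor subunit, held 1, 1, 1 and 0, and Rbfox1, for a splicing factor of neurons, 1, 1, 0 and 1. Of the 12 genes named by the rule, the densest was B230307C23Rik (chr16:97997078-98016756), with 4 sites in WT L within 2561 bases and none in the other lists. Gm33838 held 2 in WT S and 2 in KO S within 234 bases, all at ratios of 1.43 or less. The others with 3 or more sites named by the rule were Slc39a11, Lpcat2, Nwd1, Slco6d1 and Pkd2l2, with 4 sites in Slc39a11 and 3 in each of the rest.

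Genes of adenine methylation, pluripotency and DNA damage response were searched for single-guanine sites within 5 kb of the gene. Within that distance 1604 of all 49943 genes (3.21%) had one, and of the 21887 protein-coding genes 1092 (4.99%), with no allowance for gene length. Of 21 genes that write, read or remove adenine methylation or act in DNA cytosine methylation, 3 held a site. They were Dnmt1, the maintenance cytosine methyltransferase, with 1 in WT L at an IPD ratio of 3.99, Fto, an RNA demethylase gene, with 1 in WT S at 1.77, and Mettl16, an RNA adenine methyltransferase gene, with 1 in WT S at 1.86. Of 20 pluripotency genes only Klf5 held one, in KO S at 3.01, and of 19 DNA damage genes only Atm, in WT S at 2.05. Alkbh1 itself (chr12:87428077-87443839) held none in any list, and since depth at other bases is unknown no limit can be set for it. The 300 bases around annotated gene starts (RefSeq, GRCm38.p6) gave 9 pairs of a gene start and a call. No count for the other calls is set beside it, so whether 9 is many or few cannot be told. The KO L call at the shared start region of Gm42029 and Dnajb1, a heat shock co-chaperone gene, had an IPD ratio of 3.72, the KO S call at Zzz3, a gene of a histone acetyltransferase complex, 2.66, and the KO L call at Cyp2c29, a cytochrome P450 gene, 7.39, each at coverage of 10 to 12. The identification score was 4 at Cyp2c29, 8 at Dnajb1 and 36 at Zzz3. The other calls were at Gm51627 (1.86), Gm19705 (1.75) and Il20rb (2.01) in WT S, and at the shared start region of Aldh1a1, a retinal dehydrogenase gene, and E030003E18Rik in KO L (2.13).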

How the data were processed

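The 4 deposited lists of called adenines, 1 per genotype and DNA part, were used as the authors made them. Each line gives a deposited score (lowest value 20; scale not stated) and an identification score. The deposited coverage is a signal made by counting passes or reads at the base, without normalization by the authors. The deposited IPD ratio was made by dividing the observed inter-pulse duration by a predicted one. The deposited modified fraction, the caller's estimate at coverage of 11 or more, is written here in percent. Positions are on build mm10, as the submitters' processing notes give it. What joined the replicates, and which caller, aligner and filters were used, is not given in the sources used here.

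Sites were counted with pandas 2.3.3, numpy 2.4.6 and scipy 1.17.1 under Python 3.11.15, and figures were drawn with matplotlib 3.10.9. Background adenines were those at bases 2 to 39 of the contexts other than base 21, so that an adenine near the called one shares its neighbours. Shares have exact Clopper-Pearson intervals, differences Newcombe intervals, ratios log-scale intervals, medians order-statistic intervals, and a difference of 2 differences an interval joined from their limits, all at 95%. They cover counting error only, and passes over 1 molecule are not independent molecules. No test between genotypes was possible. The counting and the Newcombe interval were tested on simulated data. Genes and gene starts came from RefSeq tables of GRCm38.p6, which shares chromosome coordinates with mm10. Genes named were Alkbh1, the 10 with the most sites, those with sites in 3 or more lists and the list members with a site. Printed contexts were those called in most lists, those with the highest identification score for each base before and those with the highest IPD ratio per list. Chromosome 18 was left out of the choices by identification score and by IPD ratio. The sites and gene lists were chosen with earlier results of these data known. Alternatives changed the score, coverage, identification score, satellite-like contexts, dense windows, runs of calls, chromosomes, strand, coverage matching, background and fold.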

Additional observations from a re-analysis of the deposited data

Results flagged for a closer look

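The KO minus WT difference in the share of single-guanine sites with guanine before differed between the S and L parts by 1.40 percentage points, with an interval from 0.101 to 2.73. The difference was 1.83 points in S and 0.422 points in L, and the interval of the difference between them excluded 0. It was 1 of 22 such values over overlapping classes, unadjusted, and it compares 4 lists with no replicate check. Without satellite-like contexts it was 1.56 points (0.247 to 2.90), and 6 of its 11 alternatives gave an interval that includes 0, all with a value above 0. The lowest was 0.279 points, at an identification score of 20 or more. In 3 other classes the interval also excluded 0. The word GAGA, which lies within guanine before, gave 1.15 points (0.196 to 2.12). Calls followed by 2 guanines gave 2.48 points (0.829 to 4.15). Calls not followed by guanine gave -4.15 points (-6.82 to -1.48), and these make up what the classes with a following guanine leave.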

How the results depend on the processing

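No replicate could be left out and none could be weighed, since both replicates of a group share 1 list. No paired analysis was possible because the lists carry no replicate numbers. Values are given for WT L and KO L, then WT S and KO S, and the cause of each shift was not tested. At a score of 30 or more the single-guanine shares were 17.9%, 22.8%, 16.9% and 20.8% with ratios to background of 1.03, 1.38, 1.01 and 1.30, and the WT ratios thus turned above 1. At coverage of 25 or more, where most single-guanine calls are satellite-like, the shares were 19.3%, 23.95%, 16.2% and 20.99% and the ratios 1.51, 1.84, 1.12 and 1.56. At that coverage without satellite-like contexts the shares lay below background in each list. At an identification score of 20 or more, satellite-like contexts included, the shares were 18.1%, 23.6%, 20.2% and 23.7%, with ratios of 1.13, 1.55, 1.30 and 1.49. Sites with adenine before turned above background in WT L (1.04, 2.17 and 1.12 under these 3 settings), for KO L (1.60, 3.22 and 2.07), in WT S (1.06 and 1.16 under the last 2) and in KO S (1.10, 2.03 and 1.27). At coverage of 25 or more, sites with cytosine before fell to a ratio of 0.916 in KO S, their KO minus WT difference in S was -0.0490 points and their S minus L difference in KO -0.0276 points. The KO minus WT difference in L was 4.89, 4.65 and 5.49 points under the 3 settings. S minus L in KO turned to -2.01 points by score and -2.96 by coverage, with guanine before to -0.0686 by score, and S minus L in WT was -3.08 by coverage and 2.14 by identification score. The S difference less the L difference was -0.980 points by score and -2.04 by identification score.

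Without satellite-like contexts the ratios were 0.746, 0.827, 0.785 and 0.937, and the KO L share was 15.03%. Without dense windows they were 0.743, 0.814, 0.788 and 0.939, with a KO L share of 14.8%. On chromosomes 1 to 19, X and Y the KO L ratio was 0.867, and at coverage of 11 or more it was 1.05. On the plus strand the ratios were 0.750, 0.793, 0.755 and 0.936, with shares of 14.6% in KO L and 13.2% in WT S. On the minus strand they were 0.885, 1.12, 0.963 and 1.12, with shares of 18.2% and 16.04%. The median IPD ratio was 2.01, 2.13, 2.09 and 1.995 at coverage of 25 or more, 2.48, 2.48, 2.52 and 2.49 at 11 or more, 2.90, 2.79, 2.91 and 2.87 without satellite-like contexts, and 2.92, 2.79, 2.91 and 2.87 without dense windows. It was 2.92, 2.77 and 2.93 on the plus strand and 2.58, 2.55 and 2.61 on the minus strand in WT L, KO L and WT S, and 2.58 in WT L at a score of 30 or more.

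The KO minus WT difference was above 0 as a value under each of 12 alternatives in both parts. Its interval included 0 in 5 of 12 in L, from 1.13 to 5.49 points over the 12, and in 1 of 12 in S, from 2.90 to 4.76 points.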
